A study of Mus musculus with 16 samples.

Results

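The genes described here are 30 genes that carry cells from G1 into S phase and copy the genome, taken from the 55359 genes of each count table by matching the Ensembl identifier, without its version, to the gene symbol. They are the cyclins Ccne1 and Ccne2, the origin licensing genes Mcm2, Mcm3, Mcm4, Mcm5, Mcm6, Mcm7, Cdc6, Cdt1 and Orc1, the helicase activation genes Mcm10, Cdc45, Gins1 and Gins2, and the polymerase and primase genes Pola1, Pole and Prim1. The others are the sliding clamp and lagging strand genes Pcna, Fen1 and Lig1, the nucleotide supply genes Rrm1, Rrm2, Tyms and Tk1, the chromatin genes Chaf1a, Chaf1b, Uhrf1 and Slbp, and the uracil glycosylase gene Ung. All 30 were found and all 30 passed the filter on low counts. Expression was read by sequencing polyadenylated RNA from MPI-2 cells, a wild-type mouse line that resembles alveolar macrophages and is kept in GM-CSF. The cells had either been exposed to Mycobacterium abscessus, a fast-growing mycobacterium, or left uninfected, and were sampled on day 1 or on day 5. The 4 groups held 4 replicates each, which the labels call biological but which all come from 1 cell line. The p-values therefore measure the spread between these cultures, with 1 estimate per gene shared by all groups of a fit. That spread was unequal: the median log2 SD of the 30 genes was 0.635 in exposed day 5 and 0.058 in uninfected day 1 libraries. The strain and dose of bacteria and the share of infected cells are not given in the sources used here.

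A cell prepares to replicate in G1, when the origin recognition complex, Cdc6 and Cdt1 load the ring of Mcm2 to Mcm7 onto DNA. Cyclin E with its kinase then starts S phase, Cdc45 and the GINS complex turn the ring into an active helicase, and polymerases copy both strands while deoxynucleotides are made to match. Many of these genes are transcribed in a burst at the G1/S boundary by E2F factors, which the retinoblastoma family holds back in resting cells. MPI-2 cells divide continuously in GM-CSF, as alveolar macrophages renew themselves in the lung.

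Total counts per library lay between 46154875 and 81995629, and 17190 genes were tested. Values below are CPM, counts scaled to a common library size by the trimmed mean of M values (TMM). The marker values in this paragraph are CPM scaled to library totals alone. All 18 macrophage markers listed averaged at least 1 CPM in every group. The summed markers of T cells were 1.84 to 2.54 CPM in uninfected day 1, 3.50 to 5.18 in exposed day 1, 1.75 to 2.23 in uninfected day 5 and 8.69 to 13.0 in exposed day 5 libraries, most of it Lck, with Cd3g and Cd8a at 0. Epithelial markers, nearly all Cdh1, moved the other way, from 64.7 to 68.1, 36.4 to 43.2, 72.5 to 76.5 and 12.5 to 25.5 CPM in the same order. Neutrophil markers, nearly all S100a8, summed to 312 to 395, 768 to 1110, 451 to 610 and 343 to 903 CPM, with Ly6g and Elane averaging at most 0.364 CPM. Fibroblast markers, nearly all Pdgfra, summed to 17.8 to 20.1, 18.0 to 19.3, 20.8 to 22.2 and 9.11 to 13.1 CPM, and endothelial markers to 3.12 to 3.88, 2.53 to 3.74, 2.97 to 3.69 and 6.34 to 7.80 CPM. Summed macrophage markers were 22800 to 29800 CPM in uninfected and 18000 to 26700 CPM in exposed day 5 libraries, while single ones moved further: Fabp1 averaged 26.7 and 1.84 CPM, Mrc1 379 and 96.2 CPM, and Cd14 13.8 and 188 CPM. Mitochondrially encoded genes took 2.11% ± 0.112 of counts in uninfected day 1, 2.28% ± 0.377 in exposed day 1, 1.71% ± 0.126 in uninfected day 5 and 0.969% ± 0.201 in exposed day 5 libraries (SD, n = 4), and the part of these shifts in the results was not tested. Of the exposed day 5 libraries, replicates 2 and 3 carry another library code series than the remaining 14 libraries. Without them all 30 genes were still called lower at day 5.

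At day 5 all 30 genes were lower in exposed than in uninfected cells, by between 2.1-fold for Pcna, the replication clamp, and 5.7-fold for Tk1, the thymidine kinase that salvages thymidine for DNA synthesis. The median log2 fold change was -1.83, against 0.02 over all genes tested. At day 1 the differences were smaller: 29 of 30 genes had a log2 fold change below 0 and 14 were called lower, with a median log2 fold change of -0.51 against 0.03 over all genes. The test was the quasi-likelihood test of edgeR, with p adjusted over all genes by Benjamini-Hochberg and called at an adjusted p under 0.05. Of all genes, 10.5% were called lower at day 1 and 28.4% at day 5, so both shares among the 30 were above the background. No gene of the 30 was called higher at either day by edgeR or DESeq2, and none at an unadjusted p under 0.05, while 13.4% of all genes were called higher at day 1 and 28.6% at day 5. In these bulk cultures fewer cells in S phase and less of each transcript per cell cannot be told apart.

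**Figure D1:**
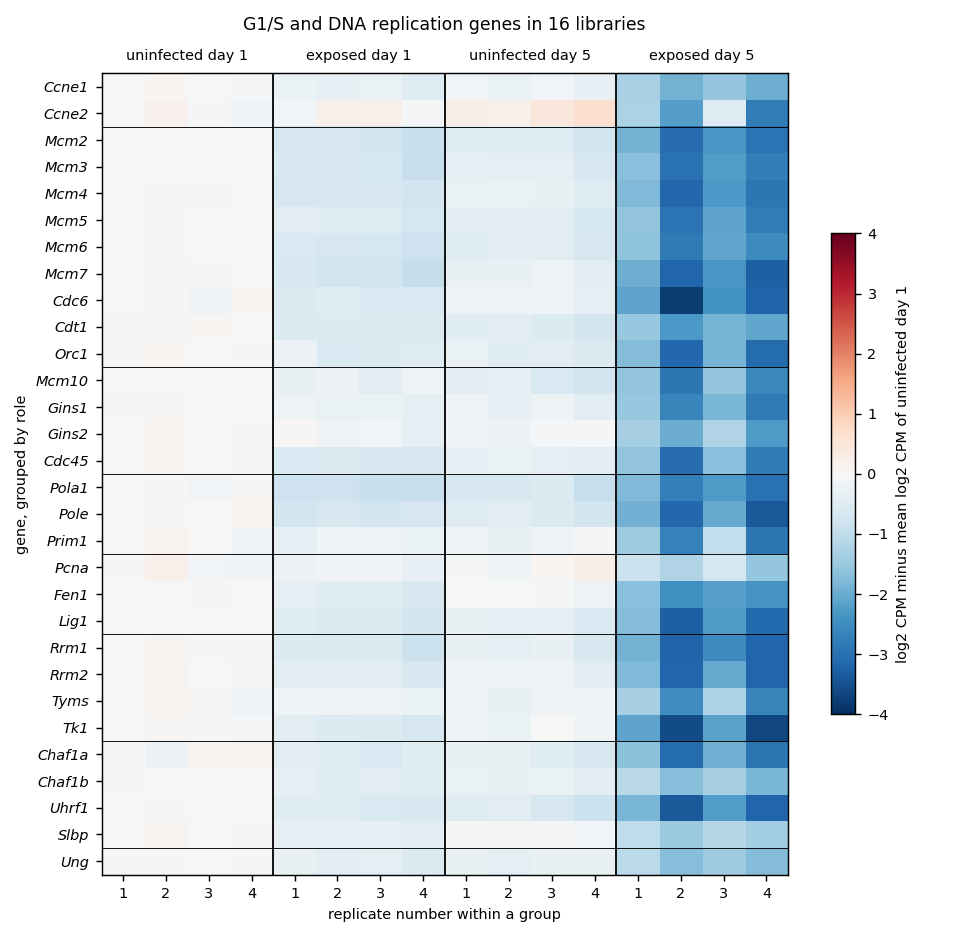
Level of the 30 genes (rows, grouped by role) in the 16 libraries (columns, replicates 1 to 4 of each group), as log2 CPM minus the mean log2 CPM of uninfected day 1. All 4 exposed day 5 columns are blue for all 30 genes, with replicates 2 and 4 darker than 1 and 3, while Ccne2 and Pcna alone have red cells at uninfected day 5.

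Since E2F factors read short sequences near transcription starts, the promoters of the members are shown before their values. RefSeq windows on GRCm38.p6, an older build than that of the counts, were found for 25 of the 30 genes and cover 250 bases before to 50 bases after each start. The letters TTTNNCGC (GCGNNAAA on the other strand), which resemble an E2F site, were in the windows of 11 of these 25 genes, namely Cdc6, Cdt1, Lig1, Mcm3, Mcm5, Mcm6, Mcm7, Orc1, Pola1, Tyms and Uhrf1. They were in 5.93% of all 27025 genes with a window and in 1 of 24 genes of a list of G2/M and mitosis genes. The stricter TTTGGCGC (or GCGCCAAA), contained in the former, was in 5 of 25 members and 0.585% of genes. CCAAT (or ATTGG), the NF-Y box, was in 16 of 25 members, in 18 of 24 G2/M genes and in 41.1% of genes. TTTGAA (or TTCAAA), which resembles the CHR element of mitotic genes, was in 3 of 25 members, 16 of 24 G2/M genes and 20.2% of genes. These shares were not matched for base composition, and a match is a description of letters. Below are the whole 250 bases upstream of Mcm6, which has 3 matches to TTTNNCGC, of Cdc6, among the genes with the largest fall at day 5, and of Pcna, the gene with the smallest. They run 5′ to 3′ towards the start, with matches to TTTNNCGC or CCAAT on either strand in capitals.
Mcm6, chr1:128359706-128359955, - strand: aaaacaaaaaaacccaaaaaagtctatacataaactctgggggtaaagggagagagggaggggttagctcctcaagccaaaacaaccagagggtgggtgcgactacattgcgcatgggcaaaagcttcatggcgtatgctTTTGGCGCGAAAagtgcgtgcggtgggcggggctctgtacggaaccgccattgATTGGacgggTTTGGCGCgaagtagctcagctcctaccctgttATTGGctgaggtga
Cdc6, chr11:98907901-98908150, + strand: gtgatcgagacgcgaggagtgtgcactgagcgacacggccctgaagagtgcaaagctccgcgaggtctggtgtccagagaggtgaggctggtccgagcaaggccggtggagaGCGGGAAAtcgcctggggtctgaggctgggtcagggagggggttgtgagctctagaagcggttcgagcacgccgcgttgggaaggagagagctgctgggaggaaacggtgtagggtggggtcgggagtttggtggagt
Pcna, chr2:132253181-132253430, - strand: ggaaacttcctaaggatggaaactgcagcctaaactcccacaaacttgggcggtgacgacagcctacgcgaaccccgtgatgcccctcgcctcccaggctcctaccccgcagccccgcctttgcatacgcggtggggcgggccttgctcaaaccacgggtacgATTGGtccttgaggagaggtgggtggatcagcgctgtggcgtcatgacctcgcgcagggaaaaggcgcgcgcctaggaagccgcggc
In the Mcm6 stretch 2 of the 3 matches overlap head to head and the remaining one lies between ATTGG boxes. Cdc6 has a single match and no CCAAT box there, and Pcna has 1 ATTGG box and no match.

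The 40-base stretches around a match in other members show how the core varies between genes. Capitals mark the match to TTTNNCGC or to its reverse.
Mcm5, chr8:75109340-75109379, + strand: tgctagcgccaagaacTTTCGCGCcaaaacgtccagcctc
Mcm7, chr5:138172025-138172064, - strand: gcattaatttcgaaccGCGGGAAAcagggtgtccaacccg
Orc1, chr4:108579411-108579450, + strand: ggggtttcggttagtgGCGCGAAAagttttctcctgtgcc
Pola1, chrX:93632270-93632309, - strand: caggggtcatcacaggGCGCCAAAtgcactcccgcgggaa
Uhrf1, chr17:56303265-56303304, + strand: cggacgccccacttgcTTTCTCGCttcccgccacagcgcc
The Mcm5 match overlaps a reverse match, as in Mcm6. The 11 genes with a match had a median log2 fold change of -0.57 at day 1 and -1.88 at day 5. The 14 genes whose window had none had -0.45 and -1.70. At day 5 these groups overlapped, from -2.49 to -1.36 with a match and from -2.52 to -1.07 without. The 5 genes with no window had medians of -0.29 at day 1 and -1.84 at day 5. The difference between these groups was not tested. Tk1, with the largest fall at day 5, is among the genes whose window had no match.

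Both E cyclins, which activate Cdk2 at the G1/S boundary, fell at day 5, and the difference between them was not tested. Ccne1 stood at 64.0, 65.8, 61.5 and 60.1 CPM in uninfected day 1 libraries and at 51.8, 49.97, 52.3 and 44.0 CPM in exposed day 1 libraries. At day 5 it was at 57.8, 52.8, 58.2 and 50.2 CPM uninfected and at 25.6, 17.1, 21.5 and 16.3 CPM exposed. The exposed libraries thus lay below all uninfected ones at both days, with log2 fold changes of -0.34 ± 0.11 (SE; adjusted p = 0.0291) at day 1 and -1.44 ± 0.11 (adjusted p = 2.87e-09) at day 5. The day 1 call of Ccne1 was lost when any of 5 day 1 libraries was left out. Ccne2 stood at 50.5, 57.4, 48.6 and 46.0 CPM in uninfected and at 46.5, 57.7, 58.1 and 49.3 CPM in exposed day 1 libraries, which overlapped, with a log2 fold change of 0.06 ± 0.31 (adjusted p = 0.912). Day 5 values were 60.7, 58.5, 69.0 and 80.3 CPM uninfected, above every uninfected day 1 library, and 21.2, 10.9, 35.6 and 7.25 CPM exposed. Its log2 fold change at day 5 was -1.84 ± 0.33 (adjusted p = 0.000132). With a log2 SD of 1.02 between exposed day 5 libraries, Ccne2 was the most variable of the 30 genes there.

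The 9 origin licensing genes were all lower at day 5 and most already at day 1. Of these, 6 were called lower at day 1 (Mcm2, Mcm3, Mcm4, Mcm6, Mcm7 and Cdt1) and all 9 at day 5, with median log2 fold changes of -0.68 and -1.89. Mcm5, Cdc6 and Orc1 had unadjusted p under 0.05 at day 1 and adjusted p of 0.0758, 0.0801 and 0.135. Mcm7, a subunit of the helicase ring, stood at 252, 261, 242 and 247 CPM in uninfected day 1 and at 161, 150, 148 and 129 CPM in exposed day 1 libraries. On day 5 its levels were 206, 204, 219 and 186 CPM uninfected and 65.2, 27.9, 50.4 and 26.3 CPM exposed. No exposed library reached an uninfected one of its day, and the log2 fold changes were -0.77 ± 0.21 (adjusted p = 0.0132) and -2.26 ± 0.22 (adjusted p = 1.55e-07).

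Mcm2, which carries parental histones as well as forming part of the ring, stood at 227, 228, 232 and 234 CPM in uninfected day 1 and 143, 145, 139 and 124 CPM in exposed day 1 libraries. Its uninfected day 5 libraries, at 162, 166, 160 and 131 CPM, were all below uninfected day 1, and its exposed day 5 libraries were at 62.5, 27.6, 45.5 and 29.7 CPM. The 6 subunits of the ring had log2 fold changes between -0.77 (Mcm7) and -0.53 (Mcm5) at day 1 and between -2.26 (Mcm7) and -1.69 (Mcm6) at day 5. The call of Mcm4 at day 1 was lost without exposed day 1 replicate 4 (adjusted p = 0.0588).

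Cdc6 and Cdt1, the loaders of the ring, had unlike falls at day 5, and the difference between them was not tested. Cdc6 stood at 55.6, 58.3, 51.2 and 59.5 CPM in uninfected day 1, 37.9, 40.3, 36.7 and 36.6 CPM in exposed day 1 and 48.9, 49.1, 48.8 and 43.0 CPM in uninfected day 5 libraries. In exposed day 5 libraries it was at 13.0, 3.99, 10.8 and 6.05 CPM, or 17.8% of the uninfected mean, with a log2 fold change of -2.49 ± 0.24 (adjusted p = 1.94e-07). Cdt1 was at 31.2, 18.4, 24.7 and 21.4 CPM in exposed and 64.1, 67.4, 61.1 and 53.4 CPM in uninfected day 5 libraries, 38.9% of the uninfected mean. At day 1 Cdt1 stood at 86.7, 87.1, 95.0 and 89.3 CPM uninfected and at 61.9, 61.2, 60.2 and 59.8 CPM exposed. Its log2 fold changes were -0.56 ± 0.11 at day 1 (adjusted p = 0.00175) and -1.36 ± 0.12 at day 5 (adjusted p = 9.72e-09), and the day 1 call was kept with each library left out. Orc1, the origin recognition subunit whose level follows the cell cycle, was the least abundant member per kilobase of exon in uninfected day 1 cells, at 4.50 CPM per kilobase. It went from 14.9 to 16.7 CPM in uninfected day 1 libraries to 1.79 to 4.70 CPM in exposed day 5 libraries.

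The genes that turn the loaded ring into a helicase fell at day 5. At day 1 none of Mcm10, Cdc45, Gins1 and Gins2 was called in the fit over all 16 libraries, 1 (Cdc45) had an unadjusted p under 0.05, and DESeq2 called Cdc45 alone (adjusted p = 0.0125). With only the day 1 libraries in the edgeR fit Cdc45 (adjusted p = 5.37e-08), Mcm10 (adjusted p = 0.000618) and Gins1 (adjusted p = 0.000647) were called lower and Gins2 was not (adjusted p = 0.148). Cdc45 was also called when any of the 4 exposed day 5 libraries was left out. At day 5 all 4 were called lower, with log2 fold changes from -1.82 (Gins1) to -1.50 (Mcm10). Cdc45 stood at 72.2, 78.2, 72.6 and 71.7 CPM in uninfected and at 48.2, 49.5, 45.8 and 46.7 CPM in exposed day 1 libraries. The day 5 levels were 58.5, 61.2, 56.9 and 53.9 CPM uninfected and 24.5, 8.95, 23.0 and 10.4 CPM exposed. Its groups did not overlap at either day, although the day 1 change of -0.63 ± 0.23 missed the threshold (adjusted p = 0.0542). Gins2, a subunit of the GINS complex, overlapped at day 1, with 40.6 to 44.5 CPM in uninfected and 31.9 to 43.3 CPM in exposed libraries. With Ccne2 it was the exception to the separation of the groups at day 1, which held for 28 of 30 members and for 19.7% of all genes.

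**Figure D2:**
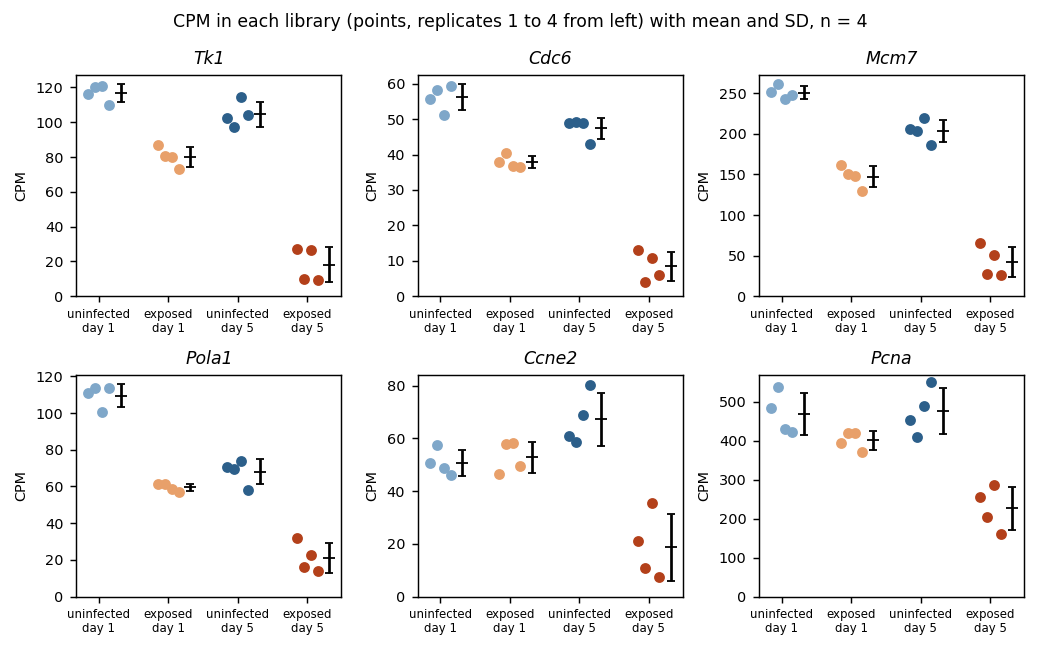
CPM of 6 members in each library (points, replicates 1 to 4 from left) with mean and SD (n = 4) beside them, from 0 on a linear axis. Exposed day 5 libraries lie lowest in every panel, Pola1 at exposed day 1 (57.2 to 61.4 CPM) is at the lower end of its uninfected day 5 libraries, and Ccne2 and Pcna show no fall in uninfected cells between days.

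Pola1, the catalytic subunit of the polymerase that lays primers, had the largest fall of the 30 genes at day 1. It stood at 111, 114, 100 and 114 CPM in uninfected and at 61.4, 61.1, 58.6 and 57.2 CPM in exposed day 1 libraries, a log2 fold change of -0.88 ± 0.18 (adjusted p = 0.00184). At day 5 it was at 70.6, 69.6, 74.1 and 58.0 CPM uninfected and at 32.1, 16.3, 22.6 and 13.9 CPM exposed, -1.68 ± 0.18 (adjusted p = 4.81e-07). It therefore ranked first at day 1 and 20 at day 5. Pole, the catalytic subunit of the leading strand polymerase, was called at both days (-0.70 ± 0.22, adjusted p = 0.0309, and -1.90 ± 0.23, adjusted p = 2.79e-06), but its day 1 call held in 9 of the 16 fits that left out a library. Prim1, the primase subunit that starts each primer, was not called at day 1 (-0.25 ± 0.28) and was called lower at day 5 (-1.62 ± 0.29, adjusted p = 0.000153).

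Among the genes of the clamp and the lagging strand, Pcna stood apart from Fen1 and Lig1. Pcna, by far the most abundant member per kilobase of exon (195 CPM per kilobase in uninfected day 1 cells, against 92.5 for Fen1 as the next), stood at 484, 538, 430 and 424 CPM in uninfected and at 395, 419, 420 and 370 CPM in exposed day 1 libraries. Day 5 values were 454, 410, 489 and 550 CPM uninfected and 255, 204, 286 and 160 CPM exposed. The exposed libraries kept 47.6% of the uninfected mean at day 5, the largest share of the 30, with a log2 fold change of -1.07 ± 0.14 (adjusted p = 2.74e-06) after -0.23 ± 0.14 at day 1 (adjusted p = 0.26). Reads of the Pcna-ps2 pseudogene numbered 0.335% of those of Pcna, and how reads shared between them were assigned is not given in the sources used here.

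Fen1, the nuclease that trims flaps of lagging strand fragments, stood at 221, 222, 233 and 220 CPM in uninfected and at 171, 158, 162 and 144 CPM in exposed day 1 libraries. On day 5 its levels were 222, 219, 214 and 193 CPM uninfected, close to the day 1 levels, and 69.8, 40.8, 49.4 and 43.8 CPM exposed. The log2 fold changes were -0.50 ± 0.12 (adjusted p = 0.0061) and -2.06 ± 0.13 (adjusted p = 8.85e-11), the latter with the smallest adjusted p of the 30. Lig1, the ligase that joins those fragments, had -0.58 ± 0.23 at day 1 (adjusted p = 0.0778) and -2.05 ± 0.24 at day 5 (adjusted p = 1.51e-06).

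The nucleotide supply genes had the lowest median log2 fold change of the roles at day 5, at -2.18, after -0.51 at day 1. Tk1 stood at 116.5, 120, 121 and 110 CPM in uninfected and at 87.1, 80.5, 80.3 and 73.1 CPM in exposed day 1 libraries. The day 5 levels were 102.5, 97.2, 114 and 104 CPM uninfected and 27.2, 9.77, 26.4 and 9.45 CPM exposed. All exposed libraries were below the uninfected ones at both days, while the change of -0.54 ± 0.26 at day 1 was not called (adjusted p = 0.139) and that of -2.52 ± 0.27 at day 5 was (adjusted p = 6.44e-07). Rrm2, the cell cycle regulated subunit of ribonucleotide reductase, stood at 193, 211, 193 and 191 CPM in uninfected and at 146, 145, 148 and 127 CPM in exposed day 1 libraries. At day 5 it was at 179, 175, 171 and 145 CPM uninfected and at 58.1, 22.0, 49.2 and 22.0 CPM exposed, 22.6% of the uninfected mean. Its large partner Rrm1 was similar, with 21.5% left, and was called at day 1 as well (-0.64 ± 0.21, adjusted p = 0.036), a call that was lost when any of the 8 day 1 libraries was left out. Tyms, which makes thymidylate, had the smallest change of the role, at -0.21 ± 0.22 at day 1 (adjusted p = 0.529) and -1.57 ± 0.23 at day 5 (adjusted p = 1.7e-05).

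Chromatin genes fell into a deeper and a shallower pair. Uhrf1 guides DNA methylation to new strands, and Chaf1a is the large subunit of the histone chaperone CAF-1. Their log2 fold changes were -1.92 ± 0.24 and -1.83 ± 0.24 at day 5. Neither was called at day 1 (-0.55 ± 0.23, adjusted p = 0.0984, and -0.50 ± 0.23, adjusted p = 0.126). Chaf1b, another CAF-1 subunit, and Slbp, which binds the stem-loop of histone mRNA, had -1.16 ± 0.11 and -1.18 ± 0.09 at day 5 and were called at day 1 (-0.43 ± 0.11, adjusted p = 0.00862, and -0.40 ± 0.08, adjusted p = 0.00233). Slbp stood at 74.1, 78.9, 72.4 and 69.3 CPM in uninfected and at 55.6, 58.5, 56.2 and 53.5 CPM in exposed day 1 libraries. Day 5 values were 71.2, 69.9, 71.6 and 67.7 CPM uninfected and 36.1, 26.4, 33.0 and 27.9 CPM exposed. These exposed day 5 libraries were the closest together of any member, with a log2 SD of 0.21. Ung, which removes uracil from DNA, resembled this shallower pair, with 27.0, 17.3, 21.1 and 17.0 CPM in exposed and 45.5, 44.1, 45.4 and 45.5 CPM in uninfected day 5 libraries and log2 fold changes of -0.43 ± 0.11 (adjusted p = 0.00789) and -1.13 ± 0.11 (adjusted p = 6.16e-08). A small change with a small error was thus called at day 1 where a larger one with a wider error, such as that of Tk1, was not. These errors come from the fit over all 16 libraries, exposed day 5 included, and not from day 1 libraries alone. The SD of Tk1 was 5.00 CPM in uninfected and 5.74 CPM in exposed day 1 libraries, and 9.94 CPM in exposed day 5 libraries around a far lower mean.

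**Figure D3:**
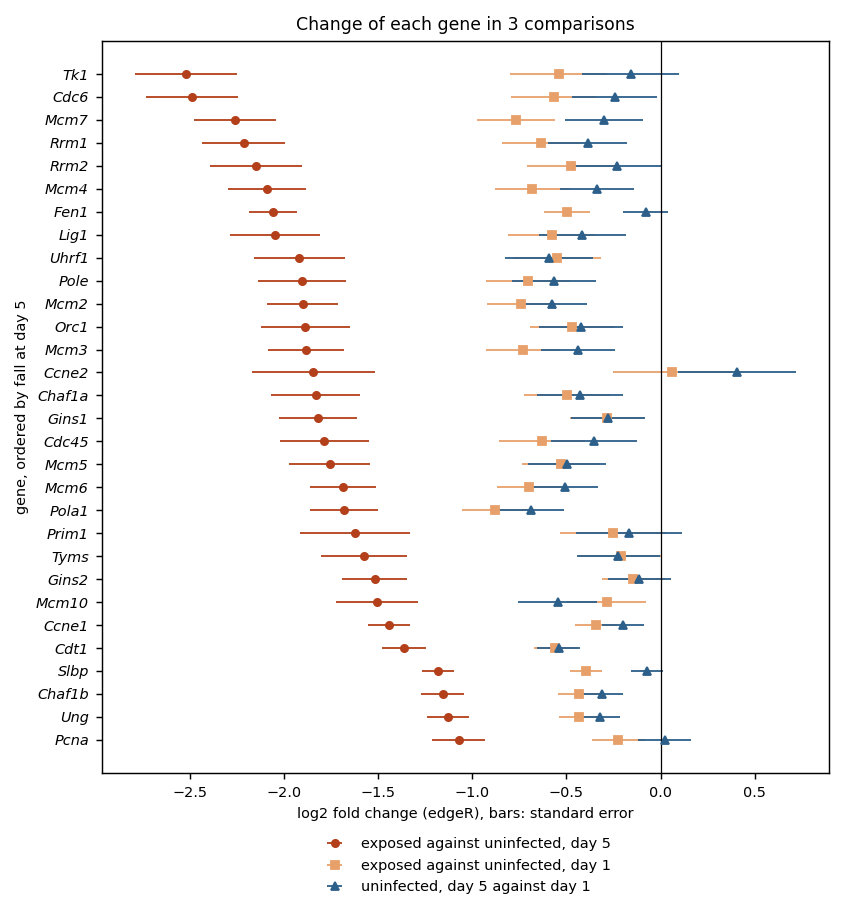
Log2 fold change (edgeR, bars are standard errors) of each gene in 3 comparisons, ordered by the fall at day 5. The day 5 values run from -2.52 (Tk1) to -1.07 (Pcna), and those at day 1 and over time in uninfected cells lie between -0.88 and 0.41.

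The order of the genes by fall differed between the days. At day 1 it was led by Pola1, Mcm7, Mcm2, Mcm3 and Pole, and at day 5 by Tk1, Cdc6, Mcm7, Rrm1 and Rrm2. From day 1 to day 5 Tk1 moved from rank 14 to 1, Cdc6 from 11 to 2, Rrm2 from 18 to 5 and Ccne2 from 30 to 14, while Cdt1 moved from 12 to 26. Neighbours in these orders mostly lay within their standard errors. Across the 30 genes the falls at both days had a Pearson correlation of 0.405 and a Spearman correlation of 0.516, given as a description, since genes of 1 library share its depth and its cells. Ranking by CPM scaled to library totals alone gave nearly the same order, with Spearman correlations to the TMM order of 0.999 at day 1 and 0.997 at day 5.

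**Figure D4:**
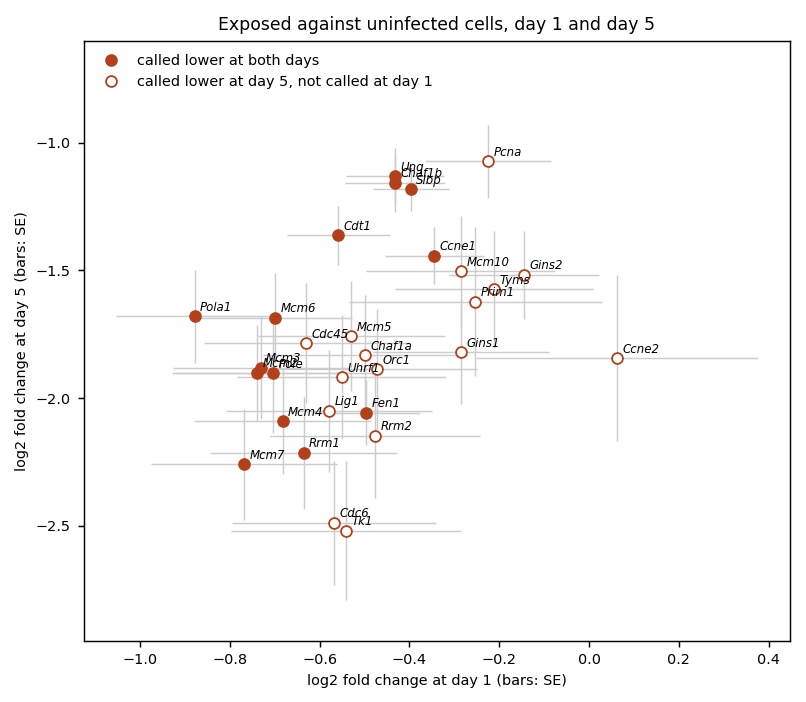
Log2 fold change of each gene at day 1 (x axis) and at day 5 (y axis), with standard errors, filled where the gene was called lower at both days. The 14 filled points include the 5 largest falls at day 1, while Tk1 and Cdc6, lowest on the y axis, are open.

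The exposure effect grew between the days for every member. The interaction was called lower for 30 of 30 genes, with a median of -1.35 against -0.04 over all genes, where 19.5% of all genes were called lower and 16.4% higher. It was largest for Tk1 (-1.98 ± 0.37, adjusted p = 0.000575), Cdc6 (-1.92 ± 0.33, adjusted p = 0.000278) and Ccne2 (-1.91 ± 0.45, adjusted p = 0.00356). Ung (-0.70 ± 0.16, adjusted p = 0.00176) and Chaf1b (-0.72 ± 0.16, adjusted p = 0.00155) had the smallest. The count was 5 with replicates 1 and 2 alone, where 1675 of all genes were called lower, and 19 with replicates 3 and 4 alone, where 1083 were, against 3347 with all libraries.

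Without bacteria the genes changed less with time. Between day 1 and day 5 uninfected cells, 5 of 30 genes were called lower (Mcm2, Mcm6, Cdt1, Pola1 and Ung), with 8.91% of all genes called lower, and the median log2 fold change was -0.33 against 0.02 over all genes. Pola1 had the largest change (-0.69 ± 0.18, adjusted p = 0.0111), followed among called genes by Mcm2 (-0.57 ± 0.18, adjusted p = 0.0345), Cdt1 (-0.54 ± 0.11, adjusted p = 0.0028), Mcm6 (-0.51 ± 0.17, adjusted p = 0.0468) and Ung (-0.32 ± 0.11, adjusted p = 0.0448). No gene was called higher in the fit over all libraries or by DESeq2, and none at an unadjusted p under 0.05, against 10.8% of all genes called higher. With only the uninfected libraries in the edgeR fit, Ccne2 was called higher (adjusted p = 0.00482). Uninfected day 5 libraries lay below all uninfected day 1 libraries for 23 of 30 genes, against 17.9% of all genes, and above them for 1, Ccne2 (17.6% of all genes). Pola1 and Cdt1 kept their call with each library left out, and Mcm2, Mcm6 and Ung did not. Pola1 in uninfected day 5 cultures was at 62.1% of its uninfected day 1 mean, and in exposed day 1 cultures at 54.4%. The comparison of uninfected days shares its day 5 libraries with the day 5 comparison and its day 1 libraries with the day 1 comparison, so these changes are not independent.

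The day 1 and time counts moved with the libraries in the fit, and so did those over all genes. With only the libraries compared, 28 of 30 members were called lower at day 1 and 24 of 30 over time, while the counts over all genes were 3371 (against 1800 with all libraries) and 3038 (against 1532). With replicates 1 and 2 alone 0 members were called lower in either comparison, and 406 and 187 of all genes. With replicates 3 and 4 alone 5 and 1 members were called lower, and 156 and 195 of all genes. Of the 14 genes called at day 1, 10 kept their call in all 16 fits that left out a library: Mcm2, Mcm3, Mcm6, Mcm7, Cdt1, Pola1, Fen1, Chaf1b, Slbp and Ung.

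The exposed day 5 libraries differed from each other far more than those of any other group. The median SD of the 30 genes on the log2 scale was 0.635 there, against 0.058 in uninfected day 1, 0.093 in exposed day 1 and 0.127 in uninfected day 5 libraries. Over all genes it was 0.299 at exposed day 5. The 30 genes summed to 1381, 711, 1187 and 692 CPM in exposed day 5 replicates 1 to 4, against 3079 to 3393 CPM in uninfected day 5, 2602 to 2934 CPM in exposed day 1 and 3986 to 4218 CPM in uninfected day 1 libraries. Replicate 1 was the highest of the 4 for 24 genes and replicate 3 for 6, and the lowest was replicate 2 for 16 genes and replicate 4 for 14. The mean log2 difference from uninfected day 1 was -1.58, -2.71, -1.81 and -2.69 in replicates 1 to 4. The other library code series holds 1 of the higher and 1 of the lower of these libraries. Every one of the 4 was below every uninfected day 5 library for all 30 genes, a separation that 24.2% of all genes showed.

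**Figure D5:**
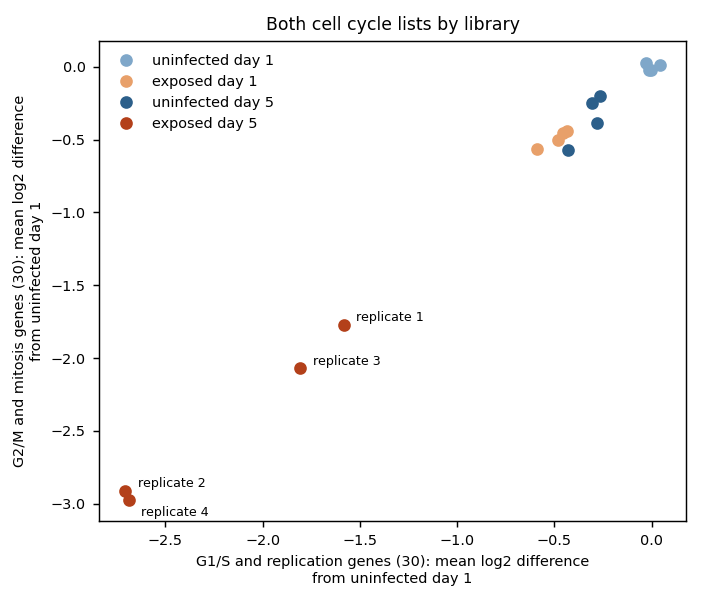
Mean log2 difference from uninfected day 1 over the 30 G1/S and replication genes (x axis) and over 30 G2/M and mitosis genes (y axis) in each library. Exposed day 5 replicates 2 and 4 lie lowest on both axes, replicates 1 and 3 next, and the other 12 libraries lie between -0.59 and 0.04 on the x axis.

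The G2/M and mitosis genes, which act after replication, were at -1.77, -2.91, -2.07 and -2.97 in exposed day 5 replicates 1 to 4. Replicates 2 and 4 again lay below 1 and 3, but the lowest was replicate 4 here and replicate 2 for the members. All 30 G2/M genes were called lower at day 5, with a median of -2.02, and 13 at day 1, with a median of -0.50. Of all genes, 28.4% were called lower at day 5 and 10.5% at day 1. Aurka, a mitotic kinase, had -1.99 ± 0.17 at day 5 (adjusted p = 2.14e-08), and Cdc25b, a phosphatase that activates mitotic kinase, -1.73 ± 0.13 (adjusted p = 1.88e-09). The fall therefore covered both ends of the division cycle, and the difference between the lists was not tested.

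Other genes of the replication pathway were listed by role. Of 45 further replication genes, 12 were called lower and 1 higher at day 1. At day 5 there were 39 lower and 2 higher, with a median of -1.14. The shares over all genes, for this list and those below, were 10.5% lower and 13.4% higher at day 1. At day 5 they were 28.4% lower and 28.6% higher. Pold2, a subunit of the lagging strand polymerase, had -1.82 ± 0.13 at day 5 (adjusted p = 1.11e-09) and Rpa1, which coats single-stranded DNA, -1.70 ± 0.13 (adjusted p = 3.18e-09). Rnaseh2b, which takes part in removing ribonucleotides from DNA, was not called at day 1 (-0.11 ± 0.09, adjusted p = 0.419) and had -1.51 ± 0.10 at day 5 (adjusted p = 1.69e-10). The genes that rose were Orc4, an origin recognition subunit, from 31.8 ± 3.47 to 47.4 ± 8.26 CPM (SD, n = 4, log2 fold change 0.58 ± 0.11, adjusted p = 0.000145), and Mtbp, from 34.1 ± 1.51 to 46.1 ± 6.29 CPM (0.43 ± 0.08, adjusted p = 0.000221). Orc1 and Orc4 of the same complex thus moved in opposite directions at day 5.

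Of 23 other genes of nucleotide synthesis, 11 were called lower and 1 higher at day 1, and 18 lower and 1 higher at day 5, with a median of -1.06. Dck, the deoxycytidine kinase, had -2.12 ± 0.15 at day 5 (adjusted p = 1.06e-09), and Impdh2, which leads to guanine nucleotides, -1.29 ± 0.09 (adjusted p = 4.12e-10). The gene that rose at day 5 was Mthfd2, a mitochondrial enzyme of one-carbon metabolism, from 94.9 ± 12.3 to 205 ± 58.9 CPM (1.11 ± 0.16, adjusted p = 6.75e-06). At day 1 Mthfd2 was not called (0.35 ± 0.15, adjusted p = 0.111). Its cytosolic counterpart Mthfd1 was called lower at day 1 (-0.64 ± 0.09, adjusted p = 7.8e-05) and at day 5 (-1.06 ± 0.10, adjusted p = 1.72e-08). Of 13 other genes of chromatin replication, 7 were called lower at day 1 and 12 at day 5, with a median of -1.28 and none called higher by edgeR or DESeq2 at day 1. Asf1b, a histone chaperone that hands histones to CAF-1, had -1.87 ± 0.17 (adjusted p = 4.06e-08), and Lbr, a receptor of the inner nuclear membrane, -1.65 ± 0.10 (adjusted p = 9.72e-11), both at day 5.

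The regulators of S phase were divided. Of 12, none was called lower by edgeR at day 1 (1 had an unadjusted p under 0.05, and DESeq2 called 1) and 1 was called higher. At day 5 there were 10 lower and 2 higher. Over all genes 10.5% were called lower and 13.4% higher at day 1, and 28.4% and 28.6% at day 5. Ccna2, the S phase cyclin, had -2.18 ± 0.24 (adjusted p = 7e-07), and Cdk2, the partner of the E cyclins, -1.27 ± 0.13 (adjusted p = 9.14e-08). Cdk6, a G1 kinase that pairs with D cyclins, rose at both days, from 72.2 ± 4.23 to 94.9 ± 5.47 CPM at day 1 (0.39 ± 0.07, adjusted p = 0.000563) and from 62.1 ± 2.94 to 128 ± 7.23 CPM at day 5 (SD, n = 4, 1.04 ± 0.07, adjusted p = 3.99e-10). Its close relative Cdk4 fell at day 5 (-0.68 ± 0.08, adjusted p = 4.21e-07). Fbxw7, which marks cyclin E for degradation, was higher at day 5 (0.45 ± 0.09, adjusted p = 0.000195).

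Of 16 tested genes of the E2F and pocket protein list, which also holds Tfdp1, Tfdp2, Lin9, Lin37 and Lin52, 7 were called lower at day 1. There were 12 lower and 2 higher at day 5, with a median of -0.56. Rbl1, the pocket protein whose own gene is an E2F target, had -0.66 ± 0.11 at day 1 (adjusted p = 0.000359) and -1.96 ± 0.12 at day 5 (adjusted p = 6.54e-11). E2f8, a late repressor of the family, had -2.15 ± 0.21 at day 5 (adjusted p = 1.55e-07). E2f3 (0.63 ± 0.09, adjusted p = 1.19e-05) and E2f5 (0.73 ± 0.12, adjusted p = 2.14e-05) were the genes that rose. At day 1 the counts of these lists also moved with the fit, as given in the closing section.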

How the data were processed

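RNA-seq of polyadenylated RNA was made from 16 cultures of MPI-2 cells. Reads were aligned to GRCm39 with STAR, per the submitters' processing notes, with no version given. The deposited files hold the authors' raw counts per gene, 1 library each, taken from the reverse-strand output per the file names. Symbols were matched by Ensembl identifier to GENCODE M21 (52083 of 55359 genes, with 0.449% of counts in the others), which also gave exon lengths. Genes passing filterByExpr by group (17190) were TMM-scaled and fitted together in 1 quasi-likelihood model over all 16 libraries (edgeR 4.0.16, R 4.3.3). Tests were two-sided, called at an adjusted p under 0.05 over all genes tested. Standard errors are the log2 fold change divided by the square root of F. CPM are scaled by TMM, except those of cell type markers, which are scaled to library totals alone. The common biological coefficient of variation was 0.149.

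The members and lists were chosen with earlier results of these data known. All 30 members are named. Of each other list up to 4 genes with the smallest p at day 5, up to 4 called against the list's median and up to 2 at day 1 could be named. Alternatives were DESeq2 1.42.0, RLE size factors, library totals, other filters, fewer libraries and the block. Promoter letters are RefSeq's on GRCm38.p6, and no other coordinates are given. Of the E2F list Lin54 was not matched to a single identifier. Figures used matplotlib 3.10.9.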

Additional observations from a re-analysis of the deposited data

Results flagged for a closer look

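The effect of exposure differed between day 1 and day 5 for all 30 genes, by the interaction term of the edgeR fit. As log2 change of the effect from day 1 to day 5, the values were -1.16 for Mcm2, -1.15 for Mcm3, -1.41 for Mcm4, -1.23 for Mcm5, -0.99 for Mcm6, -1.49 for Mcm7, -1.92 for Cdc6, -0.80 for Cdt1 and -1.42 for Orc1. They were -1.10 for Ccne1, -1.91 for Ccne2, -1.22 for Mcm10, -1.15 for Cdc45, -1.53 for Gins1, -1.37 for Gins2, -0.80 for Pola1, -1.20 for Pole and -1.37 for Prim1. They were -0.85 for Pcna, -1.56 for Fen1, -1.47 for Lig1, -1.58 for Rrm1, -1.67 for Rrm2, -1.36 for Tyms and -1.98 for Tk1. They were -1.33 for Chaf1a, -0.72 for Chaf1b, -1.37 for Uhrf1, -0.79 for Slbp and -0.70 for Ung.

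In 14 of 120 combinations of a gene and a group 1 library stood apart from the other 3 by Dixon's criterion, which chance meets in about 1 in 20. Genes of 1 library are not independent, so no excess over chance can be read from this count. Uninfected day 5 replicate 4 was the lowest of its group in 6 of the 14 combinations. It was at 131 CPM for Mcm2 (160 to 166 in the others), 157 for Mcm3 (195 to 200), 112 for Mcm4 (132 to 134), 127 for Mcm5 (153 to 156), 43.0 for Cdc6 (48.8 to 49.1) and 32.7 for Chaf1b (36.4 to 37.1). Exposed day 1 replicate 4 was the lowest at 127 CPM for Mcm5 (148 to 151), 150 for Rrm1 (180 to 185) and 127 for Rrm2 (145 to 148). Uninfected day 1 replicate 2 was the highest at 211 CPM for Rrm2 (191 to 193) and 78.2 for Cdc45 (71.7 to 72.6), and replicate 3 at 233 for Fen1 (220 to 222). Uninfected day 1 replicate 1 was the lowest at 42.9 CPM for Chaf1b (44.6 to 44.9) and uninfected day 5 replicate 2 at 44.1 for Ung (45.4 to 45.5). No exposed day 5 library stood apart in this way.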

How the results depend on the processing

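At day 5 all 30 genes were called lower under each of the 26 alternatives, and the median log2 fold change lay between -2.09 and -1.63. At day 1 the median lay between -0.58 and -0.48, for the interaction between -1.53 and -1.15 (25 alternatives) and over time between -0.37 and -0.30, so direction held while counts moved. Of genes called lower at day 1 (14 of 30), there were 28 with only the libraries compared, 0 with replicates 1 and 2 alone, 5 with replicates 3 and 4 alone, 19 by DESeq2, and 10 to 19 with a library left out. The lowest, 10, was without exposed day 1 replicate 4. Over all genes 2474 were called lower at day 1 by DESeq2, against 1800 in the main fit. With a library left out the count over all genes was 1220 to 2543, the lowest also without exposed day 1 replicate 4. The interaction (30) gave 5 and 19 with those pairs of replicates, 29 without the exposed day 5 libraries of another code series and 30 with any single library left out. Over time (5) there were 10 by DESeq2, 2 with library totals, 3 with a minimum of 1 CPM in 4 libraries, 24 lower and 1 higher with only the libraries compared, 0 and 1 with the pairs, 8 without that code series and 2 to 12 with a library left out. Without exposed day 5 replicate 1 the count over time was 12, without replicate 2 it was 10, and without any uninfected day 1 library it was 2. Leaving out exposed day 1 replicates 1, 2 or 3 or uninfected day 5 replicate 2 gave 3, and the other uninfected day 5 replicates 2. Over all genes the counts called lower ranged over the alternatives from 1083 to 3920 for the interaction and from 187 to 3038 over time. The cause was not tested.

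With the replicate number as a block, 16 genes were called lower at day 1, 30 at day 5, 30 for the interaction and 6 over time. For the correlations, the mean of the group was first subtracted from the log2 CPM of each gene tested. These deviations of same-numbered libraries correlated between -0.151 and 0.148, above 0.1 in 3 of 24 pairs. In 6 pairs a library correlated best with its own number among the 4 libraries of the other group.

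Changes of sign were limited to values that were not called. Ccne2 at day 1 had -0.051 with replicates 1 and 2 alone. Over time Pcna had -0.0087 with library totals, -0.019 and -0.026 without uninfected day 1 replicates 3 and 4, -0.057 without uninfected day 5 replicate 4 and -0.25 with replicates 1 and 2 alone. With single libraries left out its values ran from -0.057 to 0.092. Gins2 had 0.0069 over time with replicates 3 and 4 alone. Fbxw7 had 0.0094 at day 1 with replicates 3 and 4 alone. Of 3090 recomputed values of members, 2861 kept direction and call, 136 lost a call, 86 gained one and 7 changed sign.

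At day 1 the counts called lower ranged over the alternatives from 1 to 30 of 45 for other replication genes, 0 to 5 of 12 for S phase regulators, 4 to 16 of 23 for nucleotide synthesis, 0 to 11 of 13 for chromatin replication, 0 to 11 of 16 for E2F and pocket proteins and 0 to 27 of 30 for G2/M genes. Over all genes, the counts called lower and higher at day 1 were 3371 and 3650 with only the libraries compared, 406 and 813 with replicates 1 and 2 alone and 156 and 568 with replicates 3 and 4 alone. Library totals moved the median interaction of all genes to -0.12. The lowest value of Orc1, the least abundant member per kilobase, was 1.79 CPM, and what depth limits was not tested.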
